A study of Drosophila melanogaster with 24 samples.

Results

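Heat shock proteins, chaperonin subunits and DnaJ proteins were described in Drosophila melanogaster flight muscle and nerve cord after larval feeding on methylmercury (MeHg), an organic mercury compound that acts on developing nerve and muscle. The members were the protein-coding genes whose symbol begins with Hsp, Hsc70 or DnaJ, or with CCT followed by a digit, which gave 35 of 17545 genes and of 13924 protein-coding genes. They comprised 6 small Hsps, 12 genes of the Hsp70 class, 12 chaperonin genes (CCT1 to CCT8 and Hsp60A to Hsp60D), 3 DnaJ genes and the pair Hsp83 and Hsp110. Total RNA of indirect flight muscle (IFM), which powers the wings, and of the ventral nerve cord (VNC), which holds the motor neurons, was sequenced in 24 libraries. The 8 groups of 3 libraries were pupae at 30 h after puparium formation or adults at 15 days, and larvae of each were kept on food holding methylmercury chloride at 5 µM, or the solvent alone (DMSO, 0.01%), starting at the first instar. Adults of both treatments were moved to food without MeHg at eclosion, so the adult MeHg groups had no dietary MeHg as flies. Each library pooled the tissue of 50 animals, which were fixed before dissection; the labels name no strain and no sex.

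Chaperones bind unfolded proteins. Hsp70 proteins do so in cycles of ATP hydrolysis that J domain (DnaJ) proteins start and that Hsp110 proteins help to reset, and Hsp83, the fly Hsp90, finishes the folding of kinases and receptors. Small Hsps hold unfolding proteins in a soluble state without ATP. The ring of CCT subunits folds actin and tubulin in the cytosol, and Hsp60 rings fold proteins inside mitochondria. Some family members, the cognates such as Hsc70-4, are made at all times, whereas the Hsp70 copies, Hsp68 and several small Hsps are the classical heat-inducible genes of the fly, and the small Hsp cluster is also turned on by the moulting hormone ecdysone during metamorphosis.

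The libraries held 12414582 to 39254902 counts. The 6 flight muscle markers summed to at least 23200 counts per 1000000 (CPM) in every IFM library and to at most 779 CPM in any VNC library, and the 5 neuron markers summed to at least 2910 CPM in VNC and at most 167 CPM in IFM. Levels are CPM with trimmed-mean (TMM) scaling over all 24 libraries, listed in the order of replicates 1, 2 and 3. In the adult MeHg groups the labels number the replicates 1, 3 and 4, and values are listed in that order. Levels are compared between genes only per kb of exon. Errors beside means are SDs over n = 3 libraries, and errors beside log2 fold changes are standard errors. A gene was called at an adjusted p under 0.05 in edgeR's quasi-likelihood test, adjusted over all genes tested. In pooled tissue, fewer cells of a type and less RNA per cell cannot be told apart. The labels do not say that replicates came from separate cultures, so p-values measure the spread between pools. The spread of a gene was estimated over all libraries of a fit, not only over the groups compared. In the main tests a fit held all libraries of a tissue, or all 24 for the tissue effects. Wide spread in other groups thus enlarges the errors of a comparison and can keep it from being called.

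Of the 35 members, 30 passed the filter on low counts in IFM, 30 in VNC and 31 in the fit over both tissues. Hsp22 and DnaJ-60 were listed at 0 in all 24 libraries. Every exonic base of Hsp22 (BDGP6, the dm6 release, chromosome 3L, 9372931 to 9374964, + strand) is shared on the same strand with CG4456, and every exonic base of DnaJ-60 with CG42568. Of the 311 protein-coding genes whose exons are wholly shared with another gene on the same strand, 310 were listed at 0 in all libraries, so the 0 of these members says nothing of their expression. Among 133 genes whose exons are wholly shared with the opposite strand only, 6 were at 0 and 76 had 100 or more counts. Sharing with the opposite strand thus did not put most such genes at 0. Hsp67Ba shares 75.9% of its exonic bases with an antisense RNA on the opposite strand. The part of that RNA in its level was not tested. The 6 Hsp70 genes are near-identical copies on chromosome 3R. Of the counts that fell on them, 83.3% were assigned to Hsp70Bb and 13.9% to Hsp70Bc, so the division among the copies is uncertain and their sum is given as well.

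Per kb of exon, Hsp23 stood at the head of the family in all 4 pupal groups. In pupal IFM controls it reached 2510 ± 172 CPM per kb, followed by Hsp26 with 1060 ± 38.1, Hsc70-4 with 817 ± 7.98, Hsp83 with 580 ± 76.1 and Hsp27 with 545 ± 32.2. Hsp83 and Hsp27 did not differ beyond their SDs. In pupal VNC controls the order was Hsp23 with 2460 ± 111 CPM per kb, Hsc70-4 with 532 ± 4.1, Hsp26 with 457 ± 65.3, Hsp67Bc with 421 ± 9.55 and Hsp83 with 412 ± 11.5, where the last 3 overlapped within their SDs. In adults the constitutive genes led. Adult IFM controls had Hsp83 at 964 ± 235 CPM per kb, Hsc70-4 at 542 ± 15.5, Hsc70-5 at 326 ± 27.1 and Hsc70-1 at 282 ± 16.2, and adult VNC controls had Hsc70-4 at 369 ± 30.5, Hsp83 at 253 ± 51.6 and Hsp60A at 218 ± 15.4. Hsp83 and Hsp60A in adult VNC overlapped within their SDs. At the other end, Hsp60B, Hsp60C, Hsp60D, Hsc70-2, Hsp70Aa, Hsp70Ab, Hsp70Ba and Hsp70Bbb had group means of at most 2.18 CPM per kb in every group.

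The small Hsps among the members were much lower in adults than in pupae in both tissues. All 5 members tested fell in IFM, with a median log2 fold change of -6.07 against -0.04 over all genes tested, and all 5 fell in VNC, with a median of -6.27 against 0.05. The stage comparison called 74.4% of all genes tested in IFM (36.7% lower and 37.7% higher in adults) and 64.3% in VNC (32.6% lower and 31.7% higher). Over all classes and both directions the test called 23 of 30 members in IFM and 22 of 30 in VNC. The cluster of small Hsp genes lies on chromosome 3L between 9371511 and 9385694.

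Hsp23 (chromosome 3L, 9381882 to 9382765, + strand) was at 2390, 2110 and 2150 CPM in pupal IFM controls and at 9.81, 12 and 12.6 CPM in adult IFM controls, a 190-fold difference (log2 fold change -7.57 ± 0.56, adjusted p 5.03e-07). In VNC it went from 2070, 2190 and 2260 CPM in pupae to 29.2, 25.5 and 31.6 CPM in adults, 77.2-fold lower (-6.27 ± 0.38, adjusted p 8.7e-08). No pupal library came near an adult one in either tissue. Hsp27 (9384063 to 9385694, + strand) was at 950, 866 and 853 CPM in pupal IFM and 11.4, 19.8 and 8.09 CPM in adult IFM (-6.07 ± 0.73, adjusted p 3.23e-05). Its VNC levels were 600, 638 and 685 CPM in pupae and 7.42, 9.16 and 5.87 CPM in adults, 88.6-fold lower (-6.47 ± 0.73, adjusted p 2.24e-05). Hsp26 (9376418 to 9377427, - strand) fell less, from 1060, 1120 and 1050 CPM to 50.3, 77.2 and 62.3 CPM in IFM (16.8-fold, adjusted p 0.000136) and from 416, 537 and 432 CPM to 39.8, 37 and 31 CPM in VNC (13.3-fold, adjusted p 0.000873). In adult IFM controls Hsp26 was then the highest small Hsp among the members, with 62.6 ± 13.4 CPM per kb against 12.9 ± 1.63 for Hsp23. In adult VNC controls they overlapped within their SDs (35.6 ± 4.47 and 32.6 ± 3.46). Related genes outside the symbol rule were higher in adult IFM controls, with CG4461 at 3750 ± 579 and CG14207 at 347 ± 80.2 CPM per kb.

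The remaining pair of small Hsps differed between the tissues as well as between the stages. Hsp67Bc, a partner of the BAG protein Starvin in the removal of damaged protein, was at 33.5, 26.7 and 30.2 CPM in pupal IFM controls and at 404, 419 and 422 CPM in pupal VNC controls, 13.7-fold higher in VNC (IFM minus VNC -3.78 ± 0.28, adjusted p 2.59e-10). In adults it was at 2.42, 3.21 and 1.86 CPM in IFM and at 3.39, 2.77 and 3.94 CPM in VNC (adjusted p 0.189), so it fell 126-fold with stage in VNC and 11.9-fold in IFM. Hsp67Ba was at 63.9, 43 and 76.6 CPM in pupal IFM and 636, 674 and 736 CPM in pupal VNC, 11.2-fold higher in VNC (adjusted p 1.94e-13). Its adult levels were 0.449, 0.584 and 0.316 CPM in IFM and 21.9, 23.2 and 24.1 CPM in VNC, 51.6-fold higher in VNC (adjusted p 6.07e-15), and it fell 133-fold with stage in IFM and 30.5-fold in VNC. The antisense RNA at Hsp67Ba (asRNA:CR43481) had group means of 2.74 CPM in pupal IFM, 27 CPM in adult IFM, 3.01 CPM in pupal VNC and 0.667 CPM in adult VNC among controls, an order unlike that of Hsp67Ba. Adult Hsp23 was 2.51-fold lower in IFM than in VNC (-1.33 ± 0.4, adjusted p 0.00553), while Hsp26 and Hsp27 did not pass the test of tissue at either stage.

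**Figure D1:**
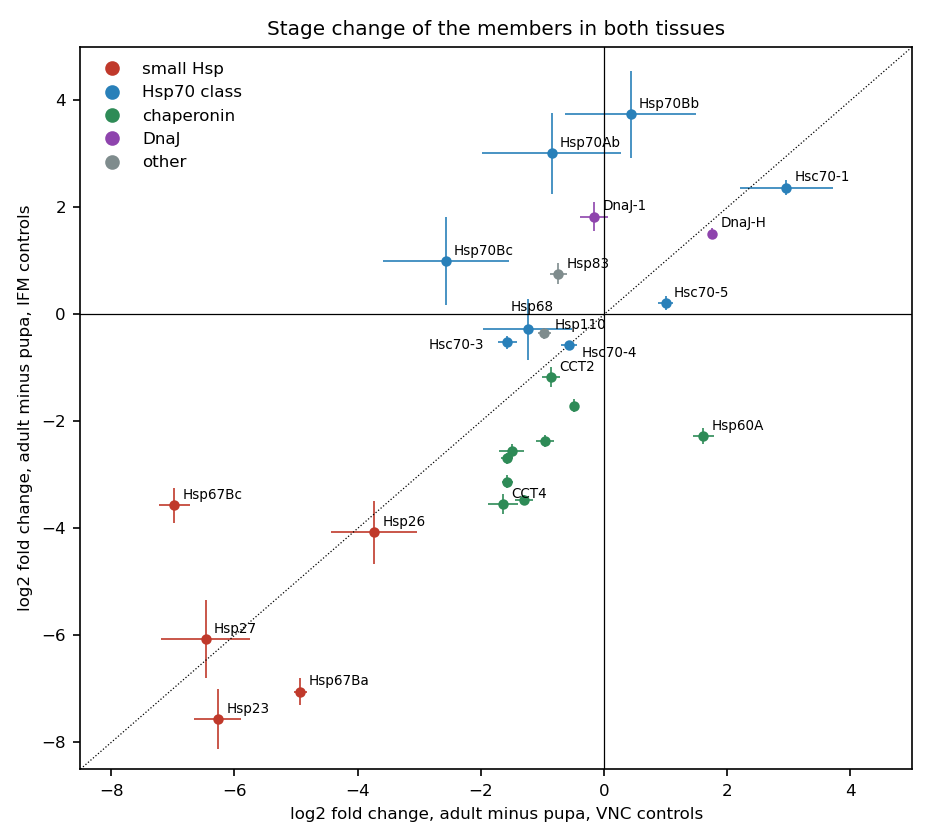
Log2 fold change from pupa to adult in VNC controls (horizontal axis) and IFM controls (vertical axis) for the 26 members tested in both tissues other than Hsp60B, Hsp60C, Hsp60D and Hsc70-2; bars are standard errors, the dotted line marks equal change, and CCT genes other than CCT2 and CCT4 are not labelled. The 5 small Hsps lie at -3.57 or lower on both axes, the CCT genes lie below the dotted line, and Hsp60A is lower in adult IFM and higher in adult VNC.

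The tissue comparison called 60.0% of all genes tested in pupae (25.9% higher in IFM) and 73.0% in adults (35.0% higher in IFM), and 18 of 31 members at each stage, of which 13 were higher in IFM in pupae and 12 in adults. The stage by tissue interaction, which asks whether the stage change differed between IFM and VNC, called 53.0% of all genes (26.6% with the lower value in IFM) and 19 of 31 members, 12 of them with the lower value in IFM. CCT genes made up the most uniform block. All 8 CCT genes were higher in pupal IFM than in pupal VNC (median log2 difference 2.03 against -0.11 for all genes), all 8 were lower in adults in both tissues (median -2.63 in IFM and -1.4 in VNC), and 7 of 8 fell further in IFM by the interaction test. With RLE scaling the log2 difference between tissues shifted upward for the median gene, by 0.17 in pupal and by 0.14 in adult controls.

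The sum of the 8 CCT genes was 3600, 3410 and 3560 CPM in pupal IFM controls and 613, 599 and 802 CPM in adult IFM controls. In VNC controls it was 892, 859 and 909 CPM in pupae and 400, 380 and 452 CPM in adults. Pupal IFM lay above all other control groups and adult VNC below them. Pupal VNC lay above adult IFM, but with RLE scaling their ranges overlapped (792 to 809 and 637 to 843 CPM). CCT4 showed the largest stage change called in the chaperonin class in IFM, from 475, 448 and 294 CPM in pupae to 30.2, 38.9 and 33.7 CPM in adults, 11.7-fold lower (-3.55 ± 0.19, adjusted p 1.54e-08). CCT1 followed, from 408, 414 and 440 CPM to 34, 39.2 and 38.9 CPM (11.1-fold, adjusted p 2.23e-10). CCT2 changed least in IFM, from 408, 405 and 428 CPM to 148, 148 and 246 CPM (2.25-fold, adjusted p 9.23e-05). In VNC, CCT4 went from 94.6, 99.2 and 109 CPM to 30, 33.6 and 36 CPM (3.12-fold, adjusted p 0.00015), and CCT6 changed least of the 8 (1.39-fold, adjusted p 0.000134).

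In pupal IFM the 8 subunits, which stand in equal numbers in the ring, had group means from 188 CPM per kb for CCT3 to 310 CPM per kb for CCT5. CCT5 was at 603, 615 and 623 CPM in pupal IFM controls against 129, 125 and 135 CPM in pupal VNC controls, 4.72-fold higher (2.24 ± 0.17, adjusted p 2.43e-10). In adults the subunits spread more widely, from 17.9 CPM per kb for CCT4 to 85.1 for CCT2 in IFM and from 14.9 for CCT3 to 47 for CCT6 in VNC. CCT2 was at 148, 148 and 246 CPM in adult IFM and 79, 69.2 and 89.2 CPM in adult VNC (1.19 ± 0.17, adjusted p 2.76e-06). Adult IFM was higher than adult VNC in 6 of the 8, CCT4 did not pass the test (0.04 ± 0.21, adjusted p 0.857), and CCT1 was lower in IFM (-0.32 ± 0.12, adjusted p 0.0203), a call that RLE scaling ended (-0.19, adjusted p 0.153), as did leaving out IFM control 1 (-0.26, adjusted p 0.0898) or any VNC control, with VNC control 3 the furthest (-0.07, adjusted p 0.625). Prefoldin, which hands actin and tubulin chains to the CCT ring, moved the same way. All 7 genes of the list of prefoldin subunits and chaperonin partners were lower in adult than in pupal IFM, 5 of 7 were lower in adult VNC with none higher, and all 7 were higher in pupal IFM than in pupal VNC. The shares of all genes were 36.7%, 32.6% and 25.9%. Pfdn1 had group means of 113 CPM in pupal and 16.3 CPM in adult IFM (-2.78 ± 0.11), and viaf, a phosducin-like partner of CCT, had 299 and 60.8 CPM (-2.28 ± 0.12).

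**Figure D2:**
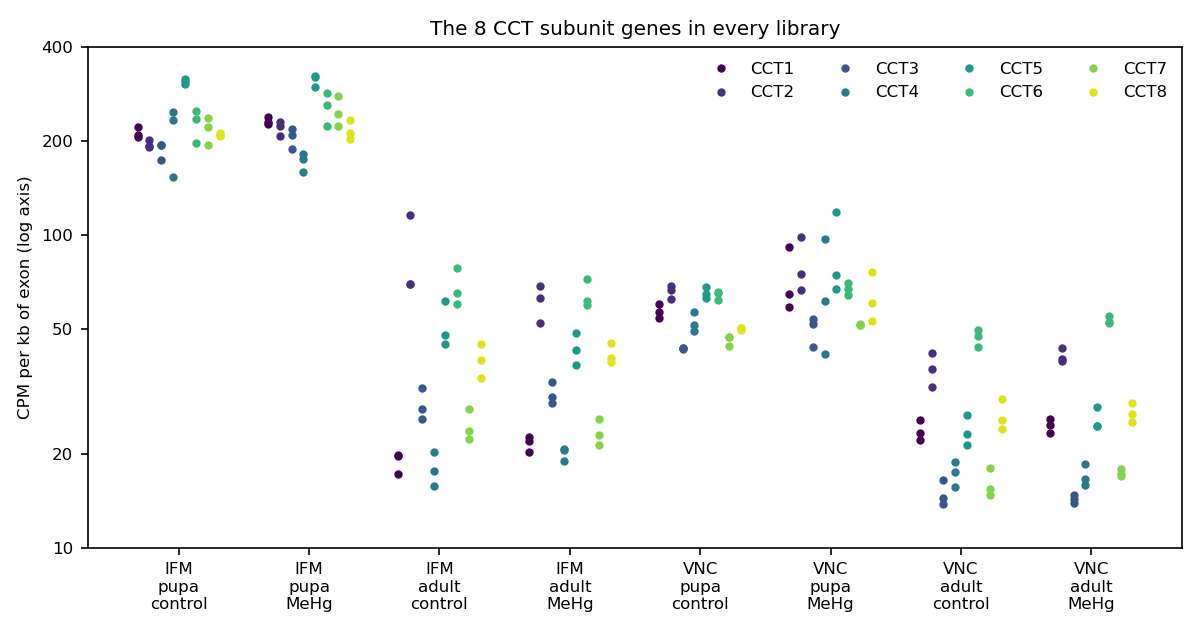
CPM per kb of exon (log axis) of the 8 CCT genes in every library of the 8 groups; each point is 1 library and each colour 1 gene. All pupal IFM libraries lie above 150 CPM per kb, and the adult groups show a wider spread among subunits than the pupal control groups.

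The mitochondrial chaperonin Hsp60A changed in opposite directions in the tissues. It was at 1050, 1220 and 1090 CPM in pupal IFM controls and 220, 217 and 248 CPM in adult IFM controls, 4.86-fold lower (-2.28 ± 0.15, adjusted p 6.17e-08). In VNC it was at 177, 168 and 170 CPM in pupae and 511, 527 and 584 CPM in adults, 3.05-fold higher (1.61 ± 0.17, adjusted p 5.69e-06). The difference of the stage changes was -3.95 ± 0.21 (adjusted p 9.22e-12), the interaction of lowest p among the members. Pupal IFM exceeded pupal VNC by 6.54-fold (adjusted p 3.58e-12), and adult IFM was 2.38-fold below adult VNC (adjusted p 2.36e-07). Hsc70-5, the mitochondrial Hsp70 that imports and folds matrix proteins, did not follow Hsp60A. It was at 829, 848 and 834 CPM in pupal IFM and 931, 887 and 1040 CPM in adult IFM (0.21 ± 0.13, adjusted p 0.165), and in VNC it rose from 116, 118 and 120 CPM to 230, 243 and 254 CPM (2-fold, adjusted p 1.27e-05). It was 7.11-fold higher in IFM than in VNC in pupae and 3.92-fold higher in adults. Of the other organelle chaperones listed, 6 of 12 tested rose and 6 fell with stage in IFM, and 6 of 13 rose and 6 fell in VNC. Of all genes, 37.7% rose and 36.7% fell in IFM, and 31.7% rose and 32.6% fell in VNC. ClpX, the unfoldase of a mitochondrial protease, rose in IFM from a mean of 70 CPM in pupae to 812 CPM in adults (3.57 ± 0.13), and Trap1, the mitochondrial Hsp90, was at 188 CPM in pupal IFM against 35.4 CPM in pupal VNC (2.41 ± 0.12).

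Hsc70-1 was far higher in muscle than in the nerve cord. It was at 131, 160 and 161 CPM in pupal IFM controls and at 0.24, 1.07 and 0.145 CPM in pupal VNC controls, 296-fold higher in IFM (8.21 ± 0.53, adjusted p 4.53e-11). It rose with stage to 773, 720 and 808 CPM in adult IFM (2.37 ± 0.14, adjusted p 3.39e-08) and to 2.78, 4.79 and 4.56 CPM in adult VNC (2.96 ± 0.76, adjusted p 0.00539). The flight muscle markers were also present in VNC at low levels, with sums of 323 to 414 CPM in pupal and 337 to 773 CPM in adult controls, and none of the 6 was at 0 in all libraries of a group; their part in the VNC level of Hsc70-1 was not tested. Hsc70-4, the main cytosolic cognate, was at 2230, 2230 and 2190 CPM in pupal IFM and 1420, 1490 and 1500 CPM in adult IFM. VNC controls had 1460, 1440 and 1440 CPM in pupae and 968, 940 and 1100 CPM in adults. The fall was 1.48-fold in both tissues (-0.57 ± 0.08 and -0.57 ± 0.13) and the interaction was -0.06 ± 0.14 (adjusted p 0.726). Hsc70-3, the BiP of the endoplasmic reticulum, fell from 952, 948 and 1060 CPM to 347, 305 and 369 CPM in VNC (2.97-fold, adjusted p 2.01e-06) and less in IFM, from 705, 606 and 706 CPM to 443, 502 and 438 CPM (1.43-fold, adjusted p 0.00202; interaction 0.99 ± 0.19).

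Hsp83 moved apart in the tissues. In IFM it was at 1750, 1480 and 1920 CPM in pupae and 3210, 2050 and 3300 CPM in adults (0.76 ± 0.2, adjusted p 0.00474), with adult control 2 below the other adult controls. VNC controls had 1200, 1200 and 1260 CPM in pupae and 708, 623 and 919 CPM in adults (-0.74 ± 0.14, adjusted p 0.00069). Adult IFM was 3.81-fold above adult VNC, pupal IFM 1.4-fold above pupal VNC (adjusted p 0.0248), and the interaction was 1.44 ± 0.26 (adjusted p 9.63e-05). The pupal difference between tissues was not called without IFM control 1 (0.46, adjusted p 0.0673) or IFM control 3 (0.39, adjusted p 0.121). Hsp110 was at 278, 237 and 309 CPM in pupal IFM and 196, 202 and 236 CPM in adult IFM (-0.35 ± 0.1, adjusted p 0.00626), and at 352, 353 and 351 CPM in pupal VNC and 192, 167 and 194 CPM in adult VNC (-0.97 ± 0.11, adjusted p 1.45e-05). The fall of Hsp110 in IFM was not called without adult control 1 (-0.23, adjusted p 0.0873) or pupal control 1 (-0.27, adjusted p 0.0541), and its lower level in pupal IFM than in pupal VNC (-0.36 ± 0.12, adjusted p 0.0134) not with RLE scaling (-0.19, adjusted p 0.118), without pupal IFM control 2 or without any one of the pupal VNC controls (adjusted p 0.0831 to 0.215). Of the 19 listed regulators and cochaperones tested, 5 rose and 9 fell with stage in IFM and 3 rose and 11 fell in VNC, beside 37.7% and 31.7% of all genes that rose and 36.7% and 32.6% that fell. HIP, an Hsp70-interacting protein, fell from a mean of 54.3 to 9.97 CPM in IFM and from 37 to 10.3 CPM in VNC, and p23, a partner of Hsp90, fell from 460 to 93.7 CPM in IFM. Starvin (stv), the muscle BAG cochaperone, rose from 151 to 570 CPM in IFM and from 24.4 to 99.6 CPM in VNC. The myosin chaperone unc-45 was at 760 CPM in pupal IFM against 41.7 CPM in pupal VNC, and at 630 against 30.3 CPM in adults.

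**Figure D3:**
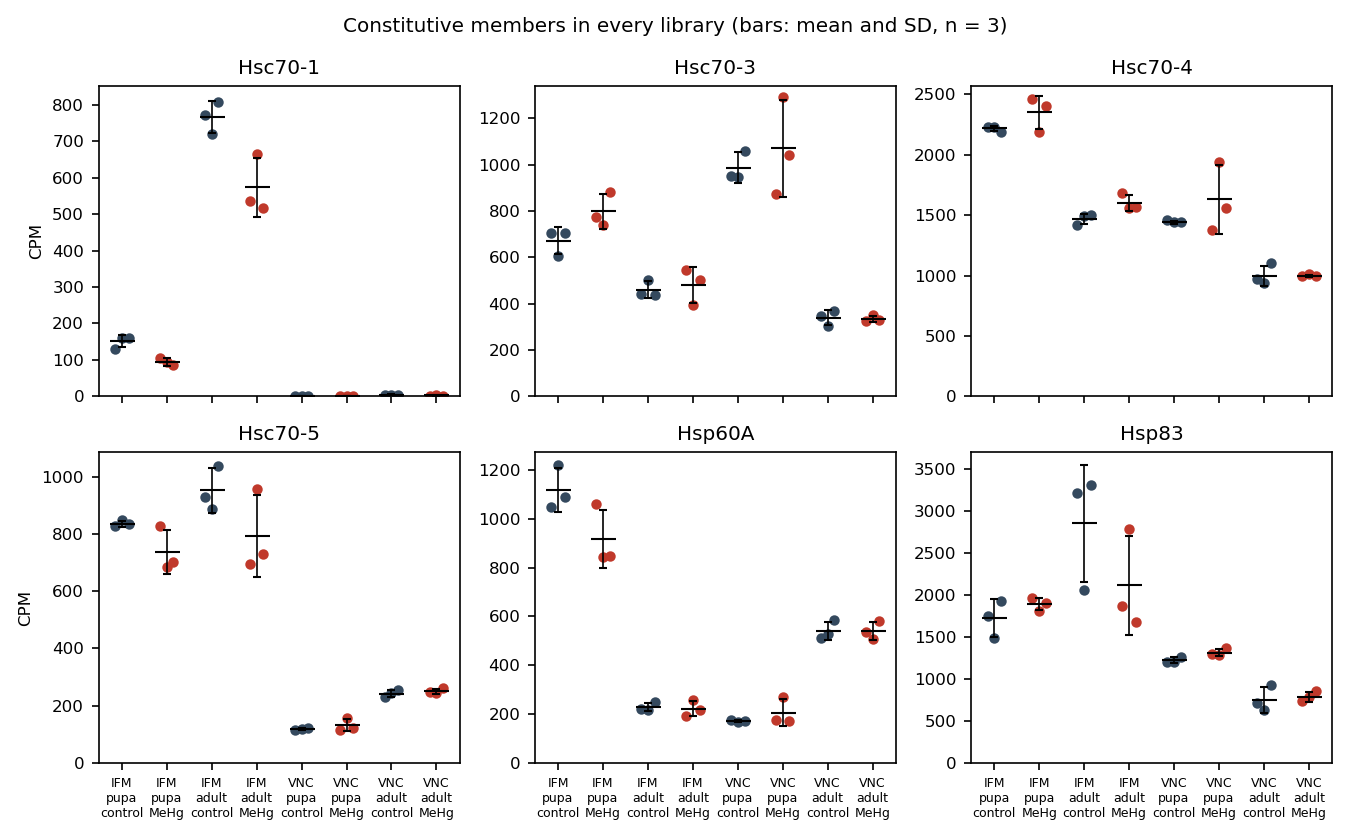
CPM of 6 constitutive members in every library of the 8 groups (points), with the mean and SD over n = 3 (black bars); dark points are controls and red points MeHg. Hsc70-1 is near 0 in all VNC libraries, and Hsp60A is highest in the pupal IFM groups, followed by the adult VNC groups.

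Both DnaJ genes tested were higher in adult than in pupal IFM. DnaJ-1, the inducible J protein that works with Hsp70, was at 118, 93.5 and 126 CPM in pupal and 390, 375 and 406 CPM in adult IFM controls (1.83 ± 0.27, adjusted p 8.4e-05). In VNC it was at 131, 166 and 148 CPM in pupae and 144, 130 and 137 CPM in adults (-0.16 ± 0.23, adjusted p 0.551), and the interaction was 1.91 ± 0.38 (adjusted p 0.000304). DnaJ-H rose in both tissues, from 28.7, 25.4 and 28 CPM to 72.1, 72.9 and 84 CPM in IFM (2.85-fold, adjusted p 1.04e-07) and from 46.9, 45.1 and 46.7 CPM to 164, 154 and 163 CPM in VNC (3.39-fold, adjusted p 4.25e-09). DnaJ-H was lower in IFM than in VNC at both stages (1.69-fold in pupae, adjusted p 4.07e-07, and 2.1-fold in adults, adjusted p 1.52e-09), whereas adult DnaJ-1 was 2.85-fold higher in IFM (adjusted p 5.67e-05). Among 12 other J domain genes tested, 6 rose and 2 fell in IFM, and 4 rose and 5 fell in VNC, against the same shares of all genes. Droj2 went from a mean of 216 to 856 CPM in IFM (2.02 ± 0.13), and jdp went from 30 to 234 CPM in VNC (2.92 ± 0.14). Of the 6 mitochondrial and endoplasmic reticulum stress regulators, 6 rose in IFM and 5 in VNC, among them Xbp1 in IFM (means of 191 and 687 CPM, 1.87 ± 0.12) and PEK in VNC (64.2 and 101 CPM, 0.62 ± 0.07). Of all genes, 37.7% rose in IFM and 31.7% in VNC.

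The Hsp70 copies were scarce in pupal muscle and more abundant in adult muscle. Their sum was 4.36, 9.78 and 7.9 CPM in pupal IFM controls and 62.5, 78 and 72.2 CPM in adult IFM controls. Hsp70Bb alone went from 2.6, 6.46 and 5.39 CPM to 56.2, 70.7 and 66.3 CPM (3.74 ± 0.81, adjusted p 0.00198), and Hsp70Ab from 0.182, 0.281 and 0.182 CPM to 1.42, 1.92 and 1.86 CPM (3.01 ± 0.75, adjusted p 0.00347). In VNC the sum was 7.32, 61.7 and 18.9 CPM in pupae and 34.6, 32.2 and 22.9 CPM in adults, where pupal control 2 stood apart from the other pupal controls. Hsp70Bc was called lower in adult VNC, from 2.78, 17.3 and 6.52 CPM to 1.73, 1.33 and 1.59 CPM (-2.57 ± 1.02, adjusted p 0.0481). Without pupal control 2 this was -1.59 (adjusted p 0.204), and the call was also lost without pupal control 3 or any adult control (adjusted p 0.0645 to 0.115). Hsp68 passed no stage or tissue test.

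The heat-inducible members were uneven within several groups. The highest library of the 6 Hsp70 copies exceeded the lowest by 8.42-fold among pupal VNC controls and 12.2-fold among pupal VNC MeHg libraries, and by 9.74-fold and 7.36-fold among the adult MeHg libraries of IFM and VNC. Adult controls differed by 1.25-fold in IFM and 1.51-fold in VNC. For Hsc70-4 the ratio was at most 1.41 in any group. In pupal VNC the high libraries were control 2 and MeHg 3. They had Hsp68 at 170 and 167 CPM, with the other 4 libraries at 54.6 to 94.7 CPM, and Hsp70 sums of 61.7 and 57.2 CPM, with the other 4 at 4.69 to 18.9 CPM. The lowest Hsp70 sum among pupal VNC libraries belonged to MeHg 2, the library of lowest depth.

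The test over all genes called 1 member for MeHg in pupal IFM, a share near that of all genes. It called none in the other 3 MeHg comparisons. The comparison called 3.01% of all genes in pupal IFM (2.09% lower) and 1 of 30 members, 0.531% and 0 of 30 in pupal VNC, 7.6% and 0 of 30 in adult IFM, and 0.0674% and 0 of 30 in adult VNC. These shares of all genes moved when single libraries were left out. The 341 genes called in pupal IFM became 101 (without MeHg 3) to 271 (without control 3), and the 63 of pupal VNC became 5 (without control 1) to 84 (without MeHg 2). The 862 of adult IFM became 210 (without MeHg 4) to 1080 (without control 2), and the 8 of adult VNC became 2 (without control 3 or MeHg 3) to 25 (without MeHg 1). At an unadjusted p under 0.05 edgeR counted 5 members in pupal IFM, 4 in pupal VNC, 5 in adult IFM and 9 in adult VNC. The share of all genes at that threshold was not counted, so these numbers show neither an excess nor a lack of members. DESeq2 called 1 member in each of pupal IFM (Hsc70-1), pupal VNC (DnaJ-H) and adult IFM (CCT1), and 4 in adult VNC (CCT6, Hsp67Bc, Hsp23 and Hsp70Bc). Over all genes DESeq2 called 959 in pupal IFM, 229 in pupal VNC, 1522 in adult IFM and 274 in adult VNC. None of the 4 interactions of MeHg with stage or tissue called a member in edgeR or DESeq2, where edgeR called 2.69% of all genes for MeHg by stage in IFM, 0.00842% in VNC, 0.245% for MeHg by tissue in pupae and 3.38% in adults. At an unadjusted p under 0.05 edgeR counted 2, 4, 2 and 2 members in these, again without a count over all genes. Title tags, numbers in the sample titles whose meaning is not stated, divide the libraries. Pupal replicate 1 carries tag 7_1 and replicates 2 and 3 carry 7_7, while adult libraries carry 7_10 except MeHg replicate 4 of each tissue, which carries 7_28.

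The member called in pupal IFM was Hsc70-1 (chromosome 3L, 13974061 to 13977761, + strand). It was at 131, 160 and 161 CPM in controls and 105, 94 and 84.9 CPM after MeHg, a log2 fold change of -0.71 ± 0.13 (adjusted p 0.0184), and all 3 MeHg libraries lay below all controls. With the title tag as a term the value was -0.7 (adjusted p 0.0622), and leaving out single libraries ended the call for control 2 (-0.61, adjusted p 0.0763), control 3 (-0.69, 0.0503), MeHg 2 (-0.74, 0.0553) and MeHg 3 (-0.61, 0.0938). The flight muscle markers summed to 45900 to 52700 CPM in these controls and 43700 to 56200 CPM in the MeHg libraries. In adult IFM Hsc70-1 was at 773, 720 and 808 CPM in controls and 536, 665 and 518 CPM after MeHg, again with no overlap (-0.38 ± 0.13, unadjusted p 0.0165, adjusted p 0.111). There the flight muscle markers summed to 33900 to 45700 CPM in controls and 23200 to 30700 CPM after MeHg, and their part in the Hsc70-1 value was not tested.

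Several members of pupal IFM had MeHg libraries wholly to one side of the controls, and only Hsc70-1 among them passed the test. There were 7 of 30 wholly above, where 10.4% of all genes were, and 4 of 30 wholly below, where 12.9% of all genes were. Those above were CCT1, CCT2, DnaJ-1, DnaJ-H, Hsc70-3, Hsp67Bc and Hsp68, and those below were Hsc70-1, Hsc70-5, Hsp26 and Hsp27. Small changes move in and out of such counts with scaling, and with RLE scaling 9 lay above (14.8% of all genes) and 3 below (14%), with DnaJ-1, DnaJ-H, Hsc70-3, CCT2, Hsp67Bc and Hsp68 above and Hsc70-1, Hsp26 and Hsp27 below in both. Hsp68 was at 111, 100 and 99.7 CPM in controls and 149, 156 and 219 CPM after MeHg (0.71 ± 0.57, adjusted p 0.541). Fitted on these 6 libraries alone it was 0.7 ± 0.13 (adjusted p 0.0283). Hsp67Bc was at 33.5, 26.7 and 30.2 CPM and 37.5, 46.8 and 68.8 CPM (0.72 ± 0.29, adjusted p 0.194). Hsp26 was at 1060, 1120 and 1050 CPM in controls and 906, 736 and 748 CPM after MeHg (-0.47 ± 0.52, adjusted p 0.688). Hsp27 was at 950, 866 and 853 CPM and 728, 557 and 774 CPM (-0.41 ± 0.58, adjusted p 0.766). The errors of both also hold the spread of adult IFM MeHg libraries, whose highest exceeded the lowest by 6.85-fold and 7.82-fold. Hsp23, at 2390, 2110 and 2150 CPM and 2160, 1870 and 2180 CPM, overlapped. Within the small Hsps the values thus went both ways. CCT4 was at 475, 448 and 294 CPM in controls and 335, 306 and 348 CPM after MeHg (-0.34 ± 0.17, adjusted p 0.295). Without control 3 it was called (-0.55, adjusted p 0.0307).

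In pupal VNC 5 of 30 members had all MeHg libraries above all controls, where 4.52% of all genes did, and none had all below, where 8.04% did. The 5 were CCT3, CCT7, CCT8, DnaJ-H and Hsp83, and with RLE scaling 9 did, where 8.74% of all genes did, with CCT1, CCT2, CCT5 and CCT6 added. All 8 CCT genes had a positive log2 fold change, from 0.08 to 0.43 with a median of 0.32, beside a median of 0 over all genes, and none passed the test. The members of lowest p were DnaJ-H, at 46.9, 45.1 and 46.7 CPM in controls and 49.5, 55.9 and 54.4 CPM after MeHg (0.22 ± 0.08, adjusted p 0.396), CCT8, at 94.8, 95.7 and 96.2 CPM and 101, 145 and 115 CPM (0.34 ± 0.14, adjusted p 0.498), and CCT1, at 119, 107 and 112 CPM and 117, 181 and 128 CPM (0.36 ± 0.15, adjusted p 0.515). CCT1 overlapped between the groups. MeHg 2, which had the lowest depth of the series with 12414582 counts, held the highest CCT sum, 1300 CPM against 897 and 1020 CPM in the other MeHg libraries and 859 to 909 CPM in controls.

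In adults of both tissues the MeHg libraries fell into 2 sets for the heat-inducible members, and the division followed the title tag. Replicates 1 and 3, which share tag 7_10 with all adult controls, lay above every control, and replicate 4, of tag 7_28, lay at or below the controls for most of these genes. Hsp26 in IFM was at 50.3, 77.2 and 62.3 CPM in controls and at 173, 178 and 26 CPM in MeHg replicates 1, 3 and 4. In VNC it was at 39.8, 37 and 31 CPM in controls and at 212, 155 and 16.7 CPM after MeHg. The pair of tag 7_10 was thus above the highest control in each tissue, and replicate 4 below the lowest. Hsp68 in IFM was at 75.9, 95.8 and 80.5 CPM in controls and 226, 265 and 30.3 CPM after MeHg, and in VNC at 51, 41.3 and 48.1 CPM and 248, 203 and 25.4 CPM. The 6 Hsp70 copies summed in IFM to 62.5, 78 and 72.2 CPM in controls and 113, 136 and 13.9 CPM after MeHg, and in VNC to 34.6, 32.2 and 22.9 CPM and 129, 118 and 17.5 CPM. Both sums show the same order as Hsp26.

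Hsp27 had the same order, with 11.4, 19.8 and 8.09 CPM in IFM controls and 45.8, 45.4 and 5.86 CPM after MeHg, and with 7.42, 9.16 and 5.87 CPM in VNC controls and 21.5, 19.8 and 2.06 CPM after MeHg. Hsp23 was at 9.81, 12 and 12.6 CPM in IFM controls and 26, 34.1 and 6.38 CPM after MeHg. In VNC it was at 29.2, 25.5 and 31.6 CPM and 85.9, 72.5 and 31.1 CPM, so that replicate 4 lay within the controls there. DnaJ-1 was at 390, 375 and 406 CPM in IFM controls and 475, 570 and 216 CPM after MeHg, and at 144, 130 and 137 CPM in VNC controls and 241, 234 and 146 CPM after MeHg, where replicate 4 lay just above the controls. Hsp67Bc was low, at 2.42, 3.21 and 1.86 CPM in IFM controls and 4.5, 5.93 and 2.42 CPM after MeHg, and at 3.39, 2.77 and 3.94 CPM in VNC controls and 8.53, 7.35 and 4.64 CPM after MeHg. Its replicate 4 lay within the controls in IFM and above them in VNC. Counted over all 3 MeHg libraries of adult IFM, 2 of 30 members (CCT1 and Hsc70-4) lay wholly above the controls, where 10.7% of all genes did, and 2 (CCT2 and Hsc70-1) wholly below, where 16.1% did. In adult VNC 4 of 30 lay wholly above (CCT6, DnaJ-1, DnaJ-H and Hsp67Bc), where 13.5% of all genes did, and none below, where 12.8% did.

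**Figure D4:**
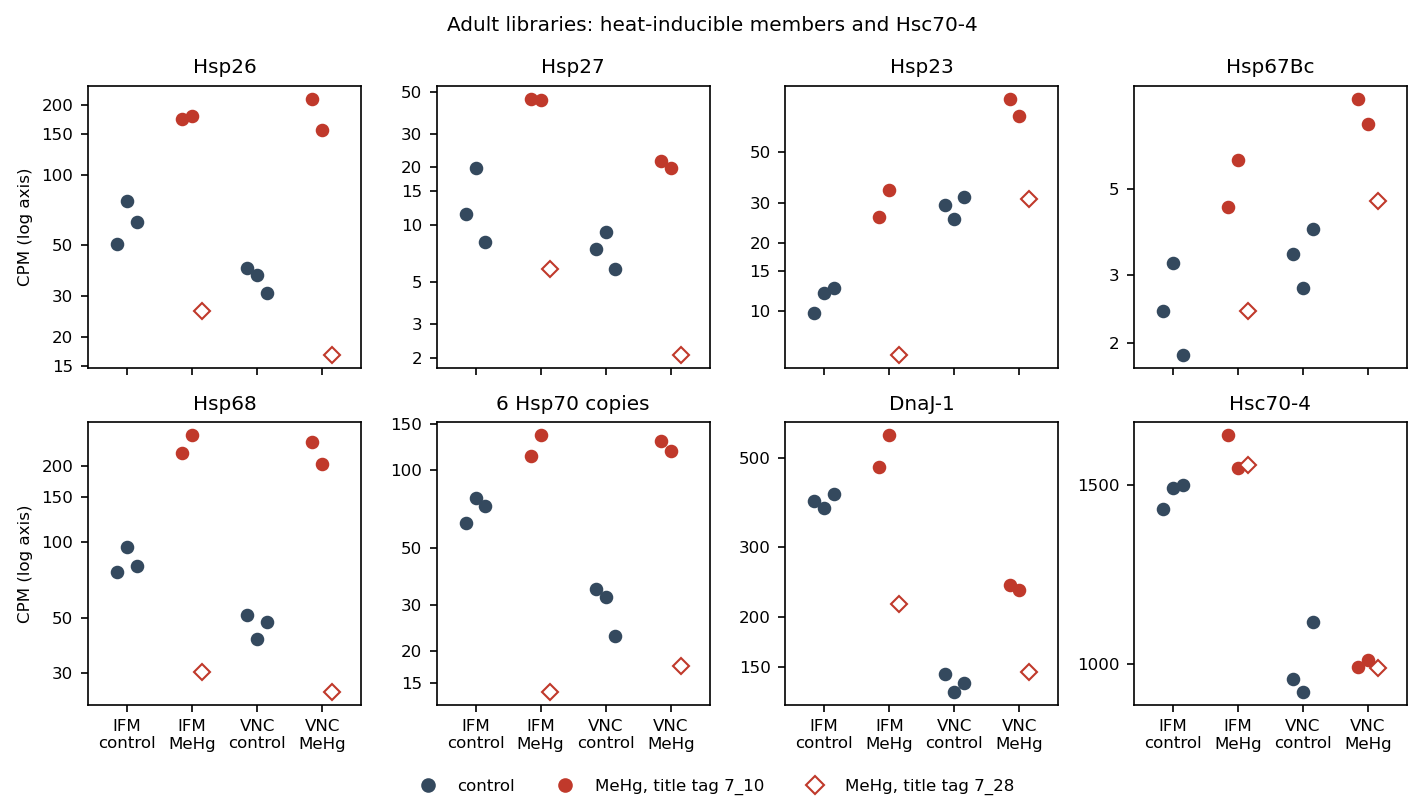
CPM (log axis) in every adult library for 5 heat-inducible members, Hsp67Bc, the sum of the 6 Hsp70 copies and the cognate Hsc70-4; dark points are controls, filled red points MeHg libraries of title tag 7_10 and open diamonds the MeHg library of tag 7_28. In all panels but Hsc70-4 both filled red points lie above the controls of their tissue, and for Hsp26, Hsp27, Hsp68 and the Hsp70 sum the open diamond lies below them.

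Over all 3 MeHg libraries these members had large fold changes with large errors. In VNC, Hsp26 was 1.89 ± 0.65 (adjusted p 0.319), Hsp68 1.82 ± 0.72 (0.349), Hsp23 1.19 ± 0.31 (0.243) and Hsp67Bc, the member of lowest p, 1.07 ± 0.22 (0.131). In IFM, Hsp27 was 1.34 ± 0.61 (0.214), Hsp68 1.08 ± 0.57 (0.288), Hsp26 1.02 ± 0.53 (0.281) and Hsp67Bc 0.82 ± 0.32 (0.141). None of these passed. Within tag 7_10, with 2 MeHg libraries against 3 controls, edgeR called 4 members higher in each tissue. These were Hsp26, Hsp23, Hsp27 and Hsp68 among 1.15% of all genes called higher in IFM, and Hsp26, Hsp23, Hsp27 and Hsp67Bc among 0.0898% of all genes, or 11 genes, called higher in VNC. The other 7 were Lsp1alpha, Lsp1gamma and Fbp1, which encode larval serum proteins and their fat body receptor, with Muc11A, Osi7, CG34215 and the RNA lncRNA:alphagamma-element:CR32865. In VNC, Fbp1 was at 2.54, 2.8 and 3.43 CPM in controls and 29.2, 27.5 and 1.5 CPM after MeHg, Lsp1alpha at 0.881, 0.489 and 0.338 CPM and 11.8, 5.17 and 1.75 CPM, and Lsp1gamma at 0.507, 1.09 and 0.652 CPM and 4.65, 5.41 and 0.727 CPM. The fat body gene Fbp1 thus had the order of Hsp26 in VNC. In IFM it did not, with 17.6, 10.9 and 5.38 CPM in controls and 5.84, 1.53 and 1.76 CPM after MeHg. Lsp1alpha in IFM was at 2.63, 4.26 and 3.55 CPM in controls and 20.5, 35.3 and 14.3 CPM after MeHg. All 3 MeHg libraries thus lay above the controls for Lsp1alpha. Lsp1gamma in IFM overlapped, at 4.77, 1.17 and 1.16 CPM and 3.2, 2.18 and 1.47 CPM. The part of fat body in the values of either tissue was not tested. Hsp26 was then 1.5 ± 0.17 in IFM (adjusted p 0.00721) and 2.42 ± 0.17 in VNC (adjusted p 0.000547), the lowest p of all 12248 genes tested in VNC. Hsp23 was 1.42 ± 0.14 in IFM (adjusted p 0.00687) and 1.52 ± 0.19 in VNC (0.0178), Hsp27 was 1.83 ± 0.28 (0.0163) and 1.55 ± 0.21 (0.0267), and Hsp68 was 1.57 ± 0.16 (0.00687) and 2.33 ± 0.48 (0.202). This reading of the left-out library was chosen after its values were seen. A term for the title tag takes up replicate 4 entirely, so it repeats this comparison and is no second test; its fold changes differed from those above by at most 0.01 in IFM and 0.03 in VNC, and it called 5 members in IFM (the same 4 and Hsp70Bc) and 4 in VNC, with 0.494% and 0.059% of all genes called higher. Tag 7_28 holds no control library, so MeHg and control cannot be compared within it, and the tag cannot be told apart from the animals of replicate 4.

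Across all 12631 genes tested in both tissues, 377 (2.98%) had both MeHg libraries of tag 7_10 above all controls in IFM and in VNC, and 10 of the 31 members did. The 10 were Hsp26, Hsp27, Hsp23, Hsp67Bc, Hsp68, Hsp70Aa, Hsp70Ab, Hsp70Bb, Hsp70Bc and DnaJ-1. The Hsp70 copies among them are near-identical, with an uncertain division of reads, so they are not separate observations. When replicate 4 was also required to lie below all controls in both tissues, 5 genes remained (0.0396%), and all 5 were members, namely Hsp26, Hsp27, Hsp68, Hsp70Bb and Hsp70Aa. Hsp70Aa was at most at 0.741 CPM in any library and is near-identical to the other copies. With RLE scaling 468 and 6 genes were counted, with the same 10 and the same 5 members and DPCoAC as the sixth gene. Both counts were made after the values of the members had been seen. None of the 9 marker lists showed the full order, with replicate 4 below all controls, in its summed level in either tissue. Taken singly, 1 of the 40 markers (Fbp1) showed it in VNC and none in IFM. With only the pair of tag 7_10 required above all controls, 2 of the 40 qualified in IFM and 7 in VNC. Of all genes, 14.1% and 17.1% did. Among the summed lists, trachea in IFM and neurons in VNC qualified. The neuron sum in VNC was 7560, 7380 and 7090 CPM in controls and 7620, 7960 and 7330 CPM after MeHg. The 2 gut markers in IFM summed to 262 to 3580 CPM in controls and 2910 to 5420 CPM after MeHg, and in VNC to 127 to 262 CPM in controls and 152, 5.6 and 3.58 CPM after MeHg. The 5 yolk and fat body markers were at 37400 to 46800 CPM in IFM controls and 27700, 13200 and 22900 CPM after MeHg, and at 4230 to 5300 CPM in VNC controls and 4690, 2410 and 2330 CPM after MeHg. The part of these tissues in the adult MeHg values was not tested.

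The constitutive members did not take part in that order. In adult IFM Hsc70-4 was at 1420, 1490 and 1500 CPM in controls and 1680, 1560 and 1570 CPM after MeHg (0.17 ± 0.08, adjusted p 0.252), and in adult VNC at 968, 940 and 1100 CPM and 994, 1010 and 992 CPM (0.05 ± 0.13, adjusted p 0.896). Hsp83 was at 3210, 2050 and 3300 CPM in IFM controls and 1860, 2780 and 1680 CPM after MeHg (-0.4 ± 0.2, adjusted p 0.256), and at 708, 623 and 919 CPM and 729, 778 and 848 CPM in VNC (0.11 ± 0.14, adjusted p 0.75). CCT1 had the lowest p in adult IFM, at 34, 39.2 and 38.9 CPM in controls and 44.8, 43.5 and 39.9 CPM after MeHg (0.24 ± 0.08, adjusted p 0.105). CCT6 was among the 3 lowest in adult VNC, at 91.3, 84.4 and 95.6 CPM and 102, 101 and 106 CPM (0.24 ± 0.08, adjusted p 0.285). Hsp60A was nearly the same in both treatments in adults (0.01 ± 0.14 in IFM and 0.06 ± 0.17 in VNC).

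The interactions of MeHg with stage and tissue asked whether the MeHg change differed between the stages or the tissues. The members of lowest p for MeHg by stage in IFM were CCT2 at -0.57 ± 0.25 (adjusted p 0.233), CCT4 at 0.55 ± 0.24 (0.241) and DnaJ-H at -0.29 ± 0.14 (0.284). Without pupal control 3, CCT4 was called there (0.75, adjusted p 0.0378). For MeHg by stage in VNC they were Hsp67Bc at 0.93 ± 0.29 (0.278), DnaJ-1 at 0.76 ± 0.32 (0.352) and Hsp70Bc at 3.25 ± 1.38 (0.358). MeHg by tissue had Hsp60A at -0.55 ± 0.21 (0.345), CCT4 at -0.65 ± 0.3 (0.432) and Hsc70-5 at -0.34 ± 0.17 (0.462) in pupae, and CCT2 at -0.61 ± 0.24 (0.156), Hsp60D at 5.54 ± 2.43 (0.21) and DnaJ-H at -0.25 ± 0.13 (0.273) in adults. Without adult MeHg replicate 4 of the tissue, MeHg by stage called Hsp26 (1.97, adjusted p 0.0336), Hsp23 (1.56, adjusted p 0.0336) and Hsp27 (2.25, adjusted p 0.0461) in IFM and Hsp26 (2.58, adjusted p 0.00492) in VNC. Over all genes it then called 80 of 11734 tested in IFM and 5 of 12248 in VNC. Replicate 4 was left out after its values were seen. Without replicate 4 of both tissues, MeHg by tissue in adults called no member, and 0.487% of all genes.

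Among the regulators and partners listed around the family, 4 of 56 genes tested (7.14%) were called in adult IFM, a share near the 7.6% of all genes. None of the listed genes tested, 56 in IFM and 57 in VNC, was called in either pupal tissue or in adult VNC. In adult IFM, unc-45 was at 608, 553 and 729 CPM in controls and 391, 440 and 350 CPM after MeHg (-0.64 ± 0.11, adjusted p 0.0104), with no overlap. The flight muscle markers, which summed to 33900 to 45700 CPM in these controls and 23200 to 30700 CPM after MeHg, were lower in the same libraries, and their part in the value of unc-45 was not tested. Its MeHg by stage interaction was -0.73 ± 0.16 (adjusted p 0.038). Hsc20, a cochaperone of iron-sulfur cluster assembly, was at 30.5, 33.8 and 38.9 CPM and 22.4, 25.7 and 22.6 CPM (-0.5 ± 0.11, adjusted p 0.0252), viaf at 60.6, 52.9 and 68.9 CPM and 45.2, 46.1 and 36.7 CPM (-0.47 ± 0.11, adjusted p 0.0329), and Csp, the J protein of synaptic vesicles, at 72.2, 76.7 and 61.2 CPM and 89.9, 92.8 and 85 CPM (0.4 ± 0.09, adjusted p 0.0246). In these 4 genes replicate 4 lay with the other MeHg libraries. They were named because the test called them, and a call favours genes whose MeHg libraries lie together. Their contrast with the heat-inducible members, which were not called, can thus come from this choice, and no conclusion is drawn from it. Pfdn6 passed the MeHg by tissue test in adults (-0.6 ± 0.16, adjusted p 0.0427). Hsf, the transcription factor of the heat shock response, was at 71, 75.5 and 68.7 CPM and 70.1, 62.3 and 57.4 CPM in adult IFM. Starvin in adult VNC was at 101, 96.8 and 101 CPM in controls and 165, 159 and 73.5 CPM after MeHg, and in adult IFM at 570, 517 and 624 CPM and 573, 586 and 367 CPM.

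Hsp60B, Hsp60C, Hsp60D and Hsc70-2 were near 0 in most libraries and high in a few. Hsp60B is required for sperm development in the fly. Hsp60C was at 0.0267, 13.9 and 0.193 CPM in adult VNC controls, at 0.303, 10.7 and 0.837 CPM in pupal IFM controls and at 1.58, 4.75 and 0 CPM in pupal IFM after MeHg. The sum of the 4 genes was 32.6 CPM in adult VNC control 2 and 22.1 CPM in pupal IFM control 2, and at most 11 CPM in the other 22 libraries. Testis markers moved with it. The 10 markers summed to 80.6 CPM in adult VNC control 2 and 32.1 CPM in pupal IFM control 2, and to at most 18.8 CPM in the others. All 10 were detected in those control groups. They were also all detected in the adult MeHg groups, where the 4 members had mean sums of 1.73 CPM in IFM and 1.69 CPM in VNC. The part of testis in these values was not tested. Tests of these 4 members between groups therefore rest on single libraries. The only one called, Hsp60D in the adult tissue comparison (0.104, 0 and 0 CPM in IFM and 0.0534, 3.24 and 0.169 CPM in VNC, -4.84 ± 1.84, adjusted p 0.0239), was -1.39 (adjusted p 0.513) without VNC control 2, and was also not called without IFM control 2 (-4.36, adjusted p 0.0781) or IFM control 3 (-4.3, adjusted p 0.0804).

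**Figure D5:**
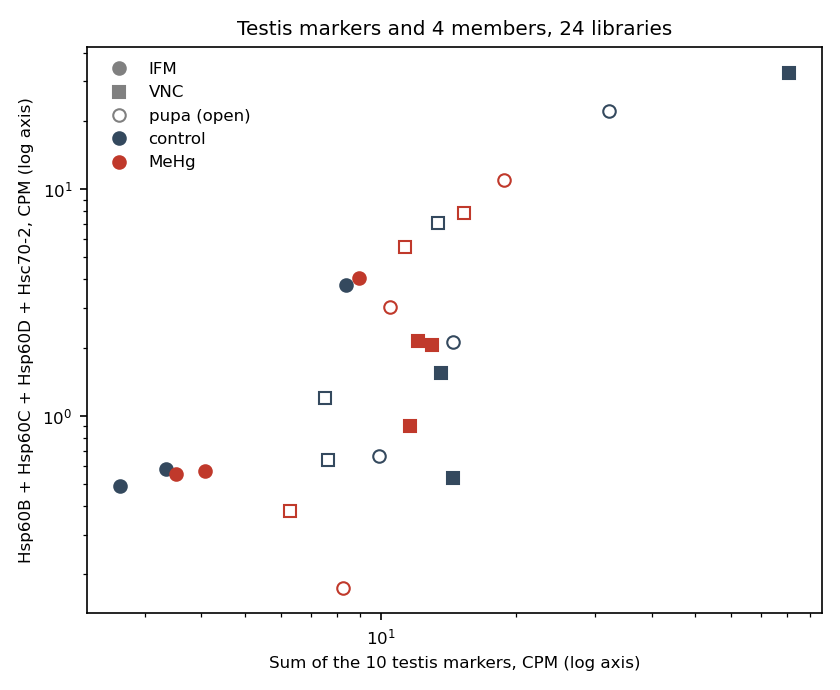
Sum of Hsp60B, Hsp60C, Hsp60D and Hsc70-2 against the sum of the 10 testis markers in CPM (log axes) for the 24 libraries; circles are IFM, squares VNC, open symbols pupae, dark control and red MeHg. The 2 libraries at the upper right are adult VNC control 2 and pupal IFM control 2.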

How the data were processed

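The authors deposited whole-number counts per gene for each of the 24 libraries, and, per the submitters' processing notes, build dm6 and the tools featureCounts (Subread 2.0.1), STAR 2.7.6a and bcl2fastq 2.19.0 were used; libraries were stranded total RNA, per the labels' protocols, and the strand setting of counting is not given in the sources used here. Symbols came from a RefSeq gene table (Release 6 plus ISO1 MT, 17504 of 17545 genes) and coordinates and exon lengths from an Ensembl annotation of BDGP6. Tests were made with edgeR 4.0.16 in R 4.3.3 (TMM, filterByExpr, robust quasi-likelihood, Benjamini-Hochberg over 11347 genes in IFM, 11870 in VNC and 12631 in both). Each tissue's 12 libraries gave MeHg, stage and MeHg by stage, and all 24 gave the tissue effects. Levels and counts of non-overlapping libraries use TMM over all 24 and depend on the scaling. Alternatives were RLE scaling, no low-count filter, DESeq2 1.42.0, a replicate block, the title tag, removal of the trend with gene length, only 6 libraries, and each library left out. No 2 replicates agreed within counting noise (chi-square of 12.9 to 213.9 for each degree of freedom). The test was checked on simulated data. Members and lists were chosen with earlier results of these data known. Named members were those called under MeHg, the 2 largest called changes per class by stage and tissue, Hsp83, Hsc70-4, Hsp26, Hsp27, Hsp23, Hsp22 and DnaJ-1, and the 3 of lowest p where none was called; others are named by level. Of the lists, genes called under MeHg and some of the largest stage and tissue changes are printed.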

Additional observations from a re-analysis of the deposited data

Results flagged for a closer look

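In the controls, the change from pupa to adult differed between IFM and VNC for 19 of 31 members by the stage by tissue interaction of edgeR, beside 53.0% of all genes. Values are the log2 stage change in IFM minus that in VNC. In the chaperonin class they were -3.95 for Hsp60A, -2.23 for CCT1, -1.96 for CCT4, -1.62 for CCT7, -1.47 for CCT8, -1.29 for CCT6, -1.18 for CCT3 and -1.12 for CCT5. Among the small Hsps they were 3.34 for Hsp67Bc, -2.21 for Hsp67Ba and -1.36 for Hsp23. In the Hsp70 class they were 3.78 for Hsp70Ab, 3.5 for Hsp70Bc, 0.99 for Hsc70-3 and -0.85 for Hsc70-5. DnaJ-1 was at 1.91 and DnaJ-H at -0.32, Hsp83 at 1.44 and Hsp110 at 0.55. Without pupal VNC control 2, the library of high Hsp70 levels, Hsp70Ab was 2.4 (adjusted p 0.173) and Hsp70Bc 2.55 (adjusted p 0.118). Hsp23, DnaJ-H and these Hsp70 copies had adjusted p between 0.036 and 0.0455 and lost the call in at least 7 of the alternatives each.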

How the results depend on the processing

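No alternative turned the sign of a called member. The number of members called for MeHg in pupal IFM (1) was 0 with the replicate block (Hsc70-1 -0.71, adjusted p 0.116) and with the title tag, 2 with 6 libraries, and 0 to 1 with single libraries left out. In pupal VNC (0) it was 1 with DESeq2. In adult IFM (0) it was 1 with DESeq2, 4 with the replicate block, 5 with the title tag and 0 to 4 with single libraries left out. In adult VNC (0) it was 4 with DESeq2, 1 with the block, 4 with the title tag and 0 to 4 with libraries left out. MeHg by stage in IFM (0) gave 3 with the block (Hsp26, Hsp23 and Hsp27) and 0 to 3 with libraries left out (1 without pupal control 3, 3 without adult MeHg 4), and in VNC (0) 1 with the title tag and 0 to 1 with libraries left out. Within a tissue, the block and the title tag each take up adult MeHg replicate 4 entirely. Their adult and MeHg by stage calls thus rest on the other libraries, as when it is left out, and are no second test. The value of Hsp60D for MeHg by tissue in adults turned to -0.02 without replicate 4 of both tissues. Stage and tissue counts stayed within 15 and 24 over all alternatives. Hsc70-4 with RLE scaling was 836 CPM per kb in pupal IFM controls, 581 in adult IFM controls, 660 in adult IFM MeHg, 482 in pupal VNC controls and 358 in adult VNC MeHg, against 817, 542, 590, 532 and 368 with TMM. Over all genes, DESeq2 called 959 in pupal IFM (edgeR 341), 229 in pupal VNC (63), 1522 in adult IFM (862), 274 in adult VNC (8), 1010 and 219 for MeHg by stage in IFM and VNC (305 and 1), and 258 and 1155 for MeHg by tissue in pupae and adults (31 and 427). The replicate block gave 0, 0, 331 and 2 in the 4 MeHg comparisons, 18 by stage in IFM and 227 by tissue in adults. The title tag gave 154 in pupal IFM, 31 in pupal VNC, 81 in adult IFM, and 0 and 5 by stage. With 6 libraries the 4 MeHg counts were 523, 0, 152 and 27. Without the low-count filter pupal VNC had 30 and MeHg by tissue in adults 283. RLE scaling gave 2 by stage in VNC and 59 by tissue in pupae, and the length correction 5 by stage in VNC. Between control and MeHg, same-numbered libraries did not deviate together throughout (correlations of -0.45 to 0.45). Between IFM and VNC they did in pupal MeHg (0.26, 0.23 and 0.66) and in 2 of 3 pupal control pairs (0.4, 0.57 and -0.04), but not in adults (-0.54 to 0.26). The pupal MeHg pairs enter only the test of MeHg by tissue, which also holds the pupal control pairs. No comparison tested thus had all its pairs over 0.1, and the numbers are not taken as pairs. With the block 23 members were called by tissue in pupae and in adults (18 and 18 without). In adults the block pairs only replicates 1 and 3. The cause of these shifts was not tested. Members under about 1 CPM, such as Hsp70Aa, rest on too few counts for firm values.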

Other observations

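In IFM, 3 alpha crystallin genes outside the symbol rule were higher in adult than in pupal controls. CG4461, which lies inside the same cluster on chromosome 3L, was at 14.9, 16.7 and 13.8 CPM in pupal IFM controls and 3020, 2880 and 3810 CPM in adult IFM controls, and at most 10.8 CPM in any VNC library. CG14207, for which HspB8 is another name and not the symbol used here, was at 150, 111 and 171 CPM in pupal IFM controls. It was at 478, 442 and 669 CPM in adult IFM controls. In VNC controls CG14207 had 83.1, 82.4 and 81.5 CPM in pupae and 99.2, 88.2 and 99.9 CPM in adults. The gene l(2)efl in IFM went from a mean of 3.15 to 16 CPM (2.38 ± 0.24). CG4461 and CG14207 were picked after their values were seen, and no test is given for them.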
